A study of Homo sapiens with 16 samples.

Results

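The axon guidance ligands and receptors described here are the 68 of 33121 entries of the count table whose symbols name Eph receptors (EPHA and EPHB), ephrins (EFNA and EFNB), semaphorins of classes 3 to 7 (SEMA), plexins (PLXN), neuropilins (NRP1 and NRP2), SLIT ligands, ROBO receptors, netrins (NTN) or UNC5 receptors. The rule reads only gene symbols, and the gene families were picked with earlier results of these data known. They comprised 14 Eph receptors, 8 ephrins, 20 semaphorins, 9 plexins, 2 neuropilins, 3 SLIT genes, 4 ROBO genes, 4 netrins and 4 UNC5 genes. Poly-A RNA was sequenced in 16 libraries of HAP1, an established near-haploid human line derived from a leukaemia line, which grows attached and has no axons. The libraries formed 4 groups of 4: cells with a deletion of SLC30A10, which encodes a manganese exporter (SLC30A10 knockout), the SLC30A10+/+ cells grown as their control (SLC30A10 control), cells with a deletion of another gene (second knockout), and the cells that are wild type for that gene and served as its control (second control). A single cell line identifier is given for the 8 control libraries, and a separate one for each deletion. All 4 groups were grown in the same medium with no treatment named. The labels do not give the number of clones behind a knockout line, nor whether replicates are separate cultures, so p-values measure the spread between these libraries, which may be technical.

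Axon guidance proteins steer growing nerve fibres and migrating cells by attraction or repulsion, and many also act in epithelia, vessels and tumours. Eph receptors are tyrosine kinases that bind ephrins on a touching cell. Ephrins of class A are held in the membrane by a lipid anchor, those of class B span it, and signals can run in both directions. Semaphorins signal through plexins, and most secreted class 3 semaphorins need a neuropilin as co-receptor. SLIT proteins bind ROBO receptors, and netrins bind DCC or UNC5 receptors.

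Library totals ranged from 16058856 to 16648151 counts, so 3 counts, the limit that a count of 0 allows, correspond to 0.181 to 0.187 CPM (counts per 1000000 after scaling of library sizes). Such limits cover counting error only. SLC30A10 itself had 3 to 11 counts in its knockout and 6 to 9 in its control, with a two-sided exact permutation p of 0.686 (the design can reach 0.0286), so its RNA level does not check the labels. Of marker lists for other cell types that use guidance genes, none of 6 endothelial and none of 6 blood markers passed the expression filter, and the endothelial cadherin gene CDH5 was at 0 counts in all libraries. The summed neuronal markers lay at 208 to 241 CPM in the SLC30A10 control and 147 to 164 CPM in its knockout, and at 227 to 238 and 149 to 184 CPM in the second control and second knockout. Of 7 neuronal markers 5 passed the filter, and nearly all of the sum was TUBB3, a tubulin. NEUROD1 and ELAVL4 had at most 2 counts in any library. The other 4 were low and moved either way. Mean SYP was 4.03 CPM in the SLC30A10 control and 5.5 CPM in its knockout, and 4.31 and 3.58 CPM in the second control and second knockout. In the same order, RBFOX3 was at 0.807, 1.47, 0.849 and 0.89 CPM, SNAP25 at 0.594, 0.867, 0.835 and 0.49 CPM, and ELAVL3 at 0.32, 0.14, 0.197 and 0.964 CPM. The summed fibroblast markers moved likewise, from 232 to 243 CPM down to 145 to 159 CPM and from 248 to 279 CPM down to 153 to 188 CPM. Most of that shift was PDGFRA, whose mean went from 201 to 114 CPM and from 228 to 139 CPM. COL1A1 went from 38.1 to 34.5 CPM and from 37.2 to 32.4 CPM. Of 6 fibroblast markers only these 2 passed the filter, and the rest had at most 9 counts in any library. The part of these shifts in the results below was not tested. In such bulk libraries, fewer cells that express a gene and less RNA per cell cannot be told apart.

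RNA of most members was detected in HAP1 cells, for some at only a few counts. Of the 68 members, 61 passed the expression filter and were tested. The other 7 were EPHA1, EPHA5, NTN5, PLXNA4, ROBO4, SEMA5A and UNC5D. Their highest count in any library was 12, in EPHA5, and ROBO4, a receptor of vessel walls, was at 0 in every library. Per length of exon, the ephrins EFNB1 and EFNA2 stood highest, at means of 35.5 and 34.4 CPM per kilobase over the 4 groups. EFNB1 was above EFNA2 in the SLC30A10 control (33.4 against 31.4) and knockout (47.3 against 34.3), and below it in the second control (32.1 against 37.2) and second knockout (29.3 against 34.6). Next by mean level were the plexin PLXNB2 (22.9), EFNA3 (14), EFNB3 (13) and EPHB4 (11.9), the receptor most often paired with EFNB2. In the other families, the highest semaphorin, ROBO and SLIT genes were SEMA6B at 10.2, ROBO1 at 9.64 and SLIT2 at 6.86 CPM per kilobase. The highest neuropilin, netrin and UNC5 genes were NRP1 at 5.02, NTN1 at 1.39 and UNC5A at 0.871 CPM per kilobase. UNC5C was last of the 61, at 0.0551 CPM per kilobase. SLIT2, at 6.86 CPM per kilobase, and ROBO1 gave HAP1 cells both a SLIT ligand and its receptor at sizeable RNA levels.

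**Figure D1:**
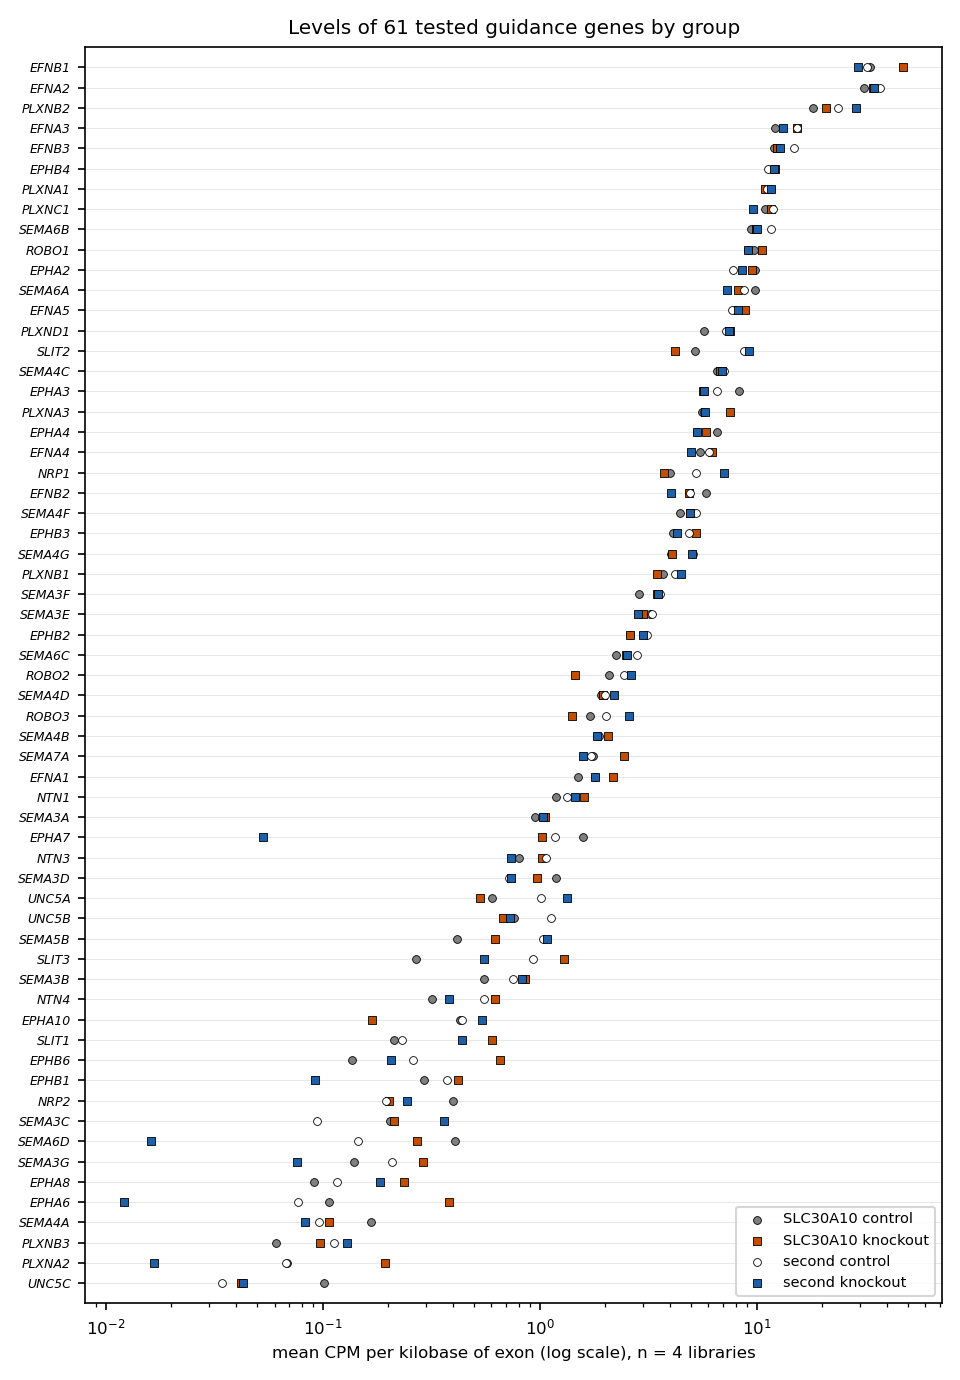
Mean level of each of the 61 tested guidance genes in each group, in CPM per kilobase of exon on a log axis (points: means of 4 libraries). EFNB1 leads at 35.5 on average, and the widest gaps between groups lie at the low end, where EPHA7, SEMA6D, EPHA6 and PLXNA2 of the second knockout fall far to the left.

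The first comparison, of the SLC30A10 knockout with its own control, asked which guidance genes differ when SLC30A10 is deleted. SLIT3, EPHB6, EPHA6, SLIT1, PLXNA2, EPHA8 and SEMA3G were at least 2-fold higher in the knockout, and EPHA10 and UNC5C at least 2-fold lower. In all, 36 of the 61 tested members passed the threshold of an adjusted p under 0.05 (edgeR quasi-likelihood test, Benjamini-Hochberg over all 15569 tested genes), 23 higher and 13 lower. The share of 59.0% stands beside 41.4% of all tested genes, and 21.2% and 20.2% of all tested genes were higher and lower. Libraries of the groups did not overlap for 33 members, or 54.1%, beside 38.3% of all tested genes. The median log2 fold change of the tested members was 0.13, beside -0.005 for all tested genes. A 2-fold change past the threshold was seen in 9 members, or 14.8%, beside 4.51% of all tested genes, and a 1.5-fold change in 14, beside 10.4%. With both control sets pooled 25 members passed, or 41%, beside 32.1% of all tested genes.

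In the second knockout, set against its own control, the leading changes were falls. EPHA7, SEMA6D, EPHA6, EPHB1, PLXNA2 and SEMA3G were at least 2-fold lower, and SEMA3C was 3.84-fold higher. Of 61 tested members 19 passed (31.1%, beside 13.7% of all tested genes by the same edgeR test), 5 higher and 14 lower, beside 6.67% and 7.03% of all tested genes. Libraries did not overlap for 25 members, or 41.0%, beside 16.3%. The median log2 fold change was -0.01 beside -0.002 for all tested genes, and 10 members changed at least 1.5-fold, beside 4.27% of all tested genes, of which 7 members, or 11.5%, changed 2-fold, beside 2.3%. Since members were chosen with earlier results known, no test of these shares against all genes was made.

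Both knockouts called 12 members, 19.7% of those tested, beside 7.82% of all tested genes, and 18 were called in neither, beside 52.7% of all. Of the 12, 6 went the same way (beside 4.02% of all tested genes): SLIT1 and PLXNB2 rose, and EFNB2, EPHA7, SEMA6A and SEMA6D fell. The other 6 went opposite ways (beside 3.8%). EPHA6, EPHB1, PLXNA2, SEMA3G and SLIT3 rose in the SLC30A10 knockout and fell in the second knockout, and ROBO3 did the reverse. Of these calls in the SLC30A10 knockout, that of ROBO3 was lost when any of 5 single libraries was left out. Those of EFNB2, PLXNB2, EPHB1 and SEMA6D were lost against pooled controls. In the second knockout the call of SLIT3 was lost against pooled controls (-0.11, adjusted p = 0.849 by edgeR). EPHA6 did not pass the expression filter in a fit of the second knockout and its control alone. The difference of the knockout effects itself passed for 33 members (54.1%, beside 31.3% of all tested genes by the same edgeR test), 24 with the higher effect in the SLC30A10 knockout and 9 with the higher effect in the second, beside 16.7% and 14.6%. It was at least 2-fold for 13 members, or 21.3%, beside 5.51%. The 13 members with a 2-fold change in a knockout all stood at rank 39 or below of 61 by level per kilobase, with mean counts per library from 9.62 to 178.

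**Figure D2:**
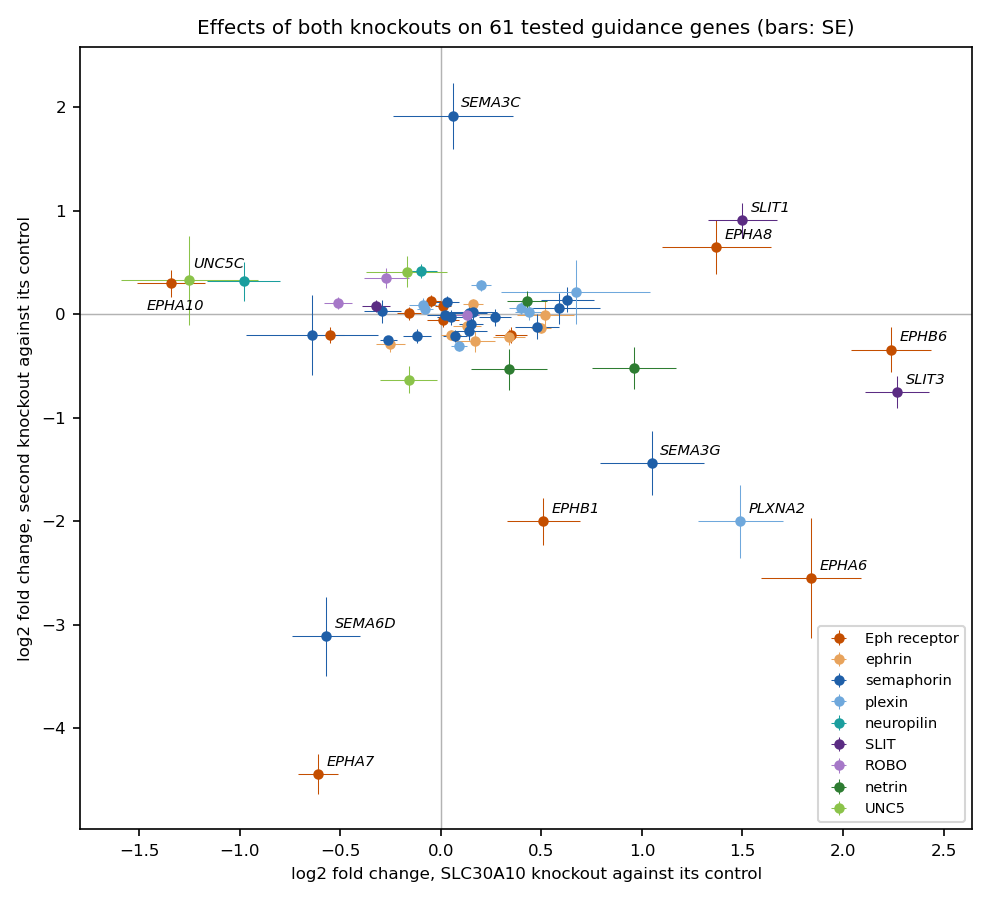
Log2 fold change of each tested member in the SLC30A10 knockout (horizontal) and in the second knockout (vertical), each against its own control, with SE bars and colours by family. EPHA6, PLXNA2, SEMA3G and EPHB1 lie at the lower right, higher in the SLC30A10 knockout and lower in the second knockout, and EPHA7 lies lowest at -4.44. The EPHA6 value in the second knockout is a fitted value near 0 counts.

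Against their own controls, EPHA7 and SEMA6D fell in both knockouts and furthest in the second. EPHA6, EPHB1, PLXNA2, SEMA3G and SLIT3 rose in the SLC30A10 knockout and fell in the second. The calls of SEMA6D and EPHB1 in the SLC30A10 knockout and of SLIT3 in the second were lost against pooled controls. The promoters of these members are shown to set their sequence beside their expression. Each runs from 250 bases before to 50 bases after the annotated gene start, 5′ to 3′ on the gene's strand, from RefSeq on GRCh38.p14, which held such a sequence for 58 of the 68 members. Capitals mark matches on either strand to the GC box (GGGCGG), the CCAAT box (CCAAT), the TATA box (TATAAA) or the E-box (CACGTG), and no match shares a base with another. The spans are chr6:93419510-93419809 (minus strand) for EPHA7, chr3:134795010-134795309 (plus) for EPHB1, chr15:47183839-47184138 (plus) for SEMA6D, chr3:96814344-96814643 (plus) for EPHA6, chr1:208244335-208244634 (minus) for PLXNA2, chr3:52445054-52445353 (minus) for SEMA3G and chr5:169301090-169301389 (minus) for SLIT3.
EPHA7: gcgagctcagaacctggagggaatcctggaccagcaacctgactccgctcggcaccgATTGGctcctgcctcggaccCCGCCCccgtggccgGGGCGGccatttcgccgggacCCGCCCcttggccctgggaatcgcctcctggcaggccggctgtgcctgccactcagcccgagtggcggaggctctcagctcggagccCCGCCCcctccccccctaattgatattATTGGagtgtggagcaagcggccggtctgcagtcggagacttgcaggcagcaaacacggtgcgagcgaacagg
EPHB1: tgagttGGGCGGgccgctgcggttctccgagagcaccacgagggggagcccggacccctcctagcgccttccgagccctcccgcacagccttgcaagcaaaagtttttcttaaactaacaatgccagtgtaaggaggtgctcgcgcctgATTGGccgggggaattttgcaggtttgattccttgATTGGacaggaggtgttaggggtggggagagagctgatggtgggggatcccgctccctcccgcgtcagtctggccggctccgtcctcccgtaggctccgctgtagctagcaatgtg
SEMA6D: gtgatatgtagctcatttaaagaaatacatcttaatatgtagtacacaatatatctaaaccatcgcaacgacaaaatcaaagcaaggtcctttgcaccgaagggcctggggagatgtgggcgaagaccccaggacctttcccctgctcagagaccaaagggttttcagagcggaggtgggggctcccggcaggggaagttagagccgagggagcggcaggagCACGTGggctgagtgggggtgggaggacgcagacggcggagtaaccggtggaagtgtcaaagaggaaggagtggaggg
EPHA6: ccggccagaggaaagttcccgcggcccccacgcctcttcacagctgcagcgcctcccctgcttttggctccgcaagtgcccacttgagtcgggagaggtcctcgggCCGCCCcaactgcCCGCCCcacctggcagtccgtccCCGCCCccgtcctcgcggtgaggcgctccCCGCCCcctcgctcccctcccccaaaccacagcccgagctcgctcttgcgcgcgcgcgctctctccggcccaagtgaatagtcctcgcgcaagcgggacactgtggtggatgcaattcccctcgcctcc
PLXNA2: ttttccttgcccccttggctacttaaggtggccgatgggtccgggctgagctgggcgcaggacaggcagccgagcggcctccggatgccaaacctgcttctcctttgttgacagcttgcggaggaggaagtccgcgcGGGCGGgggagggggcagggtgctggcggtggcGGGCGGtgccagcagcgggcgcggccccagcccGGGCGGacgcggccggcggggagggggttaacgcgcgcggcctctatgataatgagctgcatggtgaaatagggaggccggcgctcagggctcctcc
SEMA3G: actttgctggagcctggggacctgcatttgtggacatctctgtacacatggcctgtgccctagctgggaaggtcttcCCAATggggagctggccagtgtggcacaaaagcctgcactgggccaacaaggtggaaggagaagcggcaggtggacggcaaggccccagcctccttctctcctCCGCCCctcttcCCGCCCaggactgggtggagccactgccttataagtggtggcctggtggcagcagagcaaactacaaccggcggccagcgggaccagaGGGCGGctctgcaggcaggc
SLIT3: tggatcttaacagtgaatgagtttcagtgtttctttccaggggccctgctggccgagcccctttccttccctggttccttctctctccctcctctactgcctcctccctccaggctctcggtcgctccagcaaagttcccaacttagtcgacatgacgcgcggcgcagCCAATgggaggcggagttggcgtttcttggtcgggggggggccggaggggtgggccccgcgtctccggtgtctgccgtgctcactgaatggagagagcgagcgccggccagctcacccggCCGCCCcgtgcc

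The GC box was present in 6 of these 7 windows, with 4 matches each in EPHA7 and EPHA6, 3 each in PLXNA2 and SEMA3G and 1 each in EPHB1 and SLIT3. SEMA6D had an E-box and no GC box. None of the 7 held the TATA box. Among the 58 member promoters 77.6% held a GC box, 36.2% a CCAAT box, 1.7% a TATA box and 6.9% an E-box, and among all 35116 promoters of the same length the shares were 45.0%, 34.6%, 11.5% and 7.3%. Those 35116 were taken by length alone, without a choice by gene type. CpG dinucleotides numbered 30 in EPHA6, 29 in PLXNA2, 24 in EPHA7, 22 in SLIT3, 19 in EPHB1, 13 in SEMA6D and 8 in SEMA3G, against medians of 21.5 in member promoters and 14 in all promoters. The members that rose in 1 knockout and fell in the other thus ranged from the most to the least CpG-rich of those shown. Which start a gene used in these cells was not measured.

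Among Eph receptors, EPHA7 showed the furthest fall of all members. EPHA7, a receptor for class A ephrins (chromosome 6, 93240020 to 93419559, minus strand, GRCh38), had 9.05, 9.33, 8.38 and 8.51 CPM in the second control and 0.312, 0.245, 0.303 and 0.726 CPM in the second knockout. The groups were far apart, and the knockout libraries held only 4 to 12 counts, so that a low level remained. The mean was 22.2-fold lower (log2 fold change -4.44 ± 0.19, SE; adjusted p = 1.78e-16 by edgeR). In the SLC30A10 knockout EPHA7 also fell, by 0.61 ± 0.10 on the log2 scale (adjusted p = 1.67e-05 by edgeR), from 11.8 ± 0.821 to 7.69 ± 0.656 CPM (SD, n = 4), and the libraries did not overlap. The effects differed between the knockouts by 3.83 ± 0.23 on the log2 scale (adjusted p = 4.42e-13 by edgeR).

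EPHA6 and EPHB1 moved in opposite directions in the knockouts. EPHA6, another receptor of class A (chromosome 3, 96814594 to 97761532, plus strand), had 0.853, 0.364, 0.427 and 1.04 CPM in the SLC30A10 control and 2.42, 2.05, 2.82 and 2.37 CPM in its knockout, with no overlap. This rise was 1.84 ± 0.25 on the log2 scale (adjusted p = 1.57e-06 by edgeR). In the second control its libraries lay at 0.489, 0.485, 0.362 and 0.608 CPM, and in the second knockout at 0.187, 0, 0.0606 and 0.0605 CPM, which is 0 to 3 counts. Its level there was at least 2.65-fold lower, computed against 3 counts per library (adjusted p = 0.00277 by edgeR). EPHA6 cleared the expression filter through the SLC30A10 knockout libraries. In a fit of the second knockout and its control alone, EPHA6 did not pass the filter and was not tested. The fitted log2 value of -2.55 moved to -3.35 without second knockout replicate 1. EPHB1, a receptor for class B ephrins (chromosome 3, 134795260 to 135260467, plus strand), had 1.71, 2.55, 2.77 and 3.34 CPM in the second control and 0.686, 0.491, 0.666 and 0.726 CPM in the second knockout. All 4 knockout libraries were lower, and EPHB1 fell by 2 ± 0.23 on the log2 scale (adjusted p = 1.92e-07 by edgeR). In the SLC30A10 knockout EPHB1 rose from 2.04 ± 0.114 to 2.91 ± 0.412 CPM (SD, n = 4), by 0.51 ± 0.18 (log2, SE; adjusted p = 0.0214 by edgeR). That call was lost by DESeq2 (0.0525), against pooled controls (0.128 by edgeR) and without SLC30A10 knockout replicate 2 (0.0797).

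The kinase-inactive receptors EPHB6 and EPHA10, which bind ephrins but lack catalytic activity, changed in opposite directions in the SLC30A10 knockout. EPHB6 (chromosome 7, 142855076 to 142871093, plus strand) had 0.853, 0.728, 0.427 and 0.914 CPM in the SLC30A10 control and 3.67, 3.48, 3.43 and 3.36 CPM in the knockout. The second control, at 1.40 ± 0.224 CPM, and the second knockout, at 1.10 ± 0.287 CPM (SD, n = 4), lay in between. The rise was 4.77-fold, or 2.24 ± 0.20 on the log2 scale (adjusted p = 1.24e-09 by edgeR). The table holds a numbered second entry, EPHB6-2, which the name rule does not include and which rose by 2.20 ± 0.32 (log2, SE). With its counts added, a choice made after seeing the data, the rise of EPHB6 was 2.24. EPHA10 (chromosome 1, 37713880 to 37765120, minus strand) fell from 3.59, 3.95, 3.41 and 3.05 CPM to 1.74, 0.932, 1.35 and 1.49 CPM. Its fall of 1.34 ± 0.17 on the log2 scale (adjusted p = 3.26e-07 by edgeR) had no counterpart past the threshold in the second knockout, at 0.30 ± 0.13, and the difference of the effects was -1.64 ± 0.21 (adjusted p = 1.12e-06 by edgeR). EPHA8, an Eph receptor at the edge of detection with 6 to 10 counts in the SLC30A10 control, had 0.487 ± 0.100 CPM there and 1.27 ± 0.0587 CPM in the knockout (SD, n = 4), a rise of 1.37 ± 0.27 (log2, SE).

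**Figure D3:**
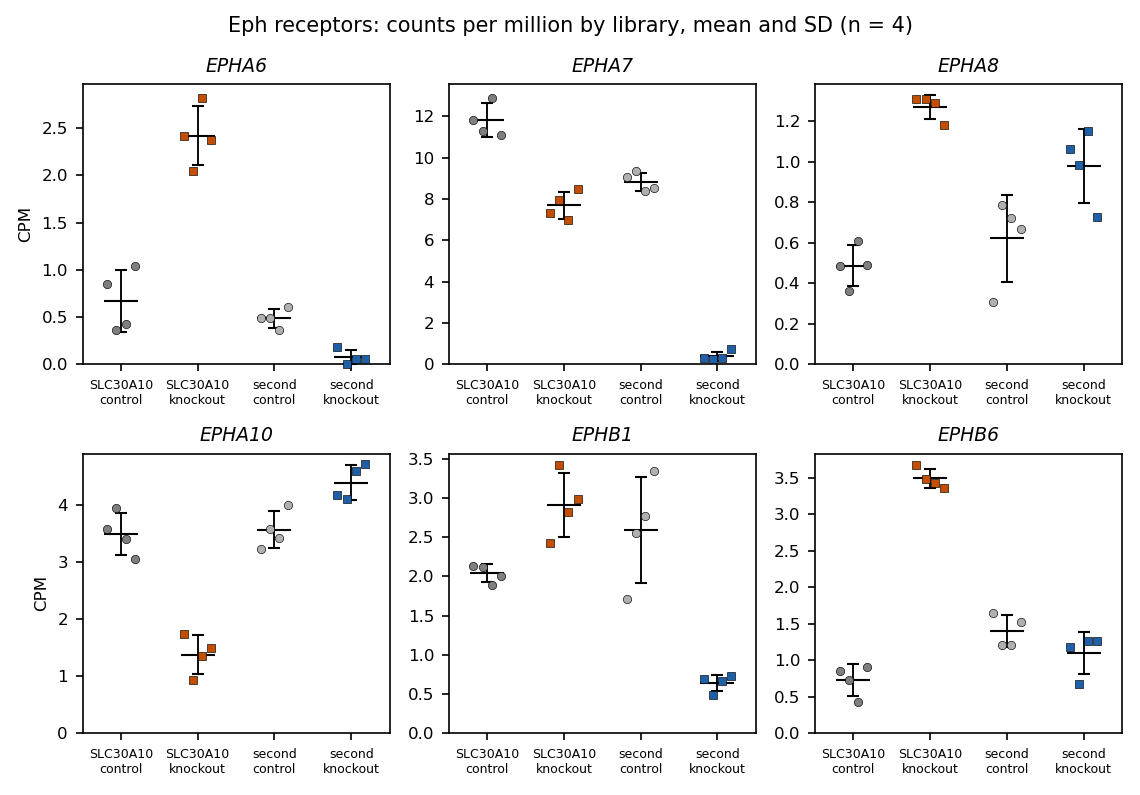
CPM of 6 Eph receptors in each library, with mean and SD of 4 libraries per group and axes that start at 0. EPHA7 of the second knockout lies at 0.245 to 0.726 CPM against 8.38 to 9.33 CPM in its control, and EPHB6 of the SLC30A10 knockout lies above all 12 other libraries.

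EPHB4 and EPHA2, the highest Eph receptors by level per kilobase, passed in neither knockout. EPHB2, which stood below EPHA3 and EPHB3 on that measure, passed in neither as well. EPHB4 differed by 0.01 ± 0.04 and 0.08 ± 0.04 on the log2 scale in the SLC30A10 and second knockouts. EPHA3 fell by 0.55 ± 0.07 in the SLC30A10 knockout, from 55.2 ± 1.58 to 37.7 ± 3.95 CPM (SD, n = 4), and EPHB3 rose by 0.35 ± 0.08. Of 12 tested Eph receptors 5 were higher and 4 lower in the SLC30A10 knockout, beside 21.2% and 20.2% of all tested genes. In the second knockout 0 were higher and 3 lower, beside 6.67% and 7.03% of all tested genes.

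Ephrins, the ligands, changed by less than 1.5-fold throughout. Of 8 ephrins 4 rose and 1 fell in the SLC30A10 knockout (21.2% and 20.2% over all tested genes), and 0 rose and 2 fell in the second knockout (6.67% and 7.03%). EFNB1, which leads by mean level per kilobase, had 106, 110, 122 and 105 CPM in the SLC30A10 control and 151, 149, 166 and 161 CPM in the knockout. This rise of 0.50 ± 0.05 on the log2 scale (adjusted p = 6.98e-09 by edgeR) separated the groups fully. EFNB1 lies on the X chromosome, whose 498 tested genes had a median log2 fold change of 0.36 in this knockout, and the 20 nearest tested genes around it had a median of 0.40. EFNA3 rose by 0.34 ± 0.08 and EFNA1 by 0.52 ± 0.14, and EFNA3 had 0.16 (adjusted p = 0.226 by edgeR) against pooled controls. They are neighbours of EFNA4 on chromosome 1, which had 0.17 ± 0.10 and did not pass. EFNB2, a marker of arteries in vessels, fell in both knockouts, by 0.25 ± 0.07 and 0.29 ± 0.07 on the log2 scale. In the SLC30A10 knockout its libraries overlapped those of the control, replicate 1 stood apart at 20.8 CPM against 25.7 to 26.1 CPM, and without it the log2 value was -0.17, still past the threshold. Against pooled controls that value was -0.13 (adjusted p = 0.237 by edgeR).

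Among semaphorins, SEMA6D fell and SEMA3C rose furthest in the second knockout. SEMA6D, a membrane-bound ligand that binds PLXNA1 (chromosome 15, 47184089 to 47774228, plus strand), had 1.53, 1.39, 1.14 and 0.911 CPM in the second control and 0.249, 0.184, 0.0606 and 0.0605 CPM in the second knockout, which is 1 to 4 counts. The mean was 8.98-fold lower (log2 fold change -3.11 ± 0.38, SE; adjusted p = 7.33e-07 by edgeR), and the log2 value was -4.03 against pooled controls. SEMA6D also separated the control sets, with 3.49 ± 0.502 CPM in the SLC30A10 control (SD, n = 4), a log2 difference of 1.48 ± 0.19. In the SLC30A10 knockout it fell by 0.57 ± 0.17 to 2.34 ± 0.404 CPM (SD, n = 4), still above the second control, and against pooled controls the change was -0.02 (adjusted p = 0.977 by edgeR).

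SEMA3C, a secreted ligand of the neuropilins (chromosome 7, 80742538 to 80922389, minus strand), had 0.612, 0.424, 0.844 and 0.486 CPM in the second control and 3.55, 2.27, 1.21 and 2.06 CPM in the second knockout. All knockout libraries were higher, although they spread widely, and the rise was 1.92 ± 0.32 on the log2 scale (adjusted p = 7.69e-05 by edgeR), or 1.27 against pooled controls. In the SLC30A10 experiment SEMA3C did not pass, at 0.06 ± 0.30, and the difference of the effects was -1.86 ± 0.45 (adjusted p = 0.00218 by edgeR). Of the 20 nearest tested genes outside the list, 5 were also called higher in the second knockout, beside 6.67% of all tested genes. The median of these 20 was 0.12.

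SEMA3G, a secreted class 3 ligand that acts through NRP2 (chromosome 3, 52433035 to 52445103, minus strand), had 0.914, 0.546, 0.793 and 0.549 CPM in the SLC30A10 control and 1.49, 1.18, 1.04 and 2.12 CPM in its knockout. In the second experiment it went from 1.10, 0.970, 1.08 and 1.03 CPM to 0.374, 0.491, 0.424 and 0.242 CPM. Neither pair of groups overlapped, and the log2 fold changes were 1.05 ± 0.26 and -1.44 ± 0.31 (adjusted p = 0.00165 and 0.00186 by edgeR). SEMA3B, a further class 3 ligand, rose by 0.63 ± 0.13 in the SLC30A10 knockout, from 3.18 ± 0.484 to 4.93 ± 0.378 CPM (SD, n = 4). An antisense entry of SEMA3B is in the table and the use of strand is not stated, so reads of both cannot be told apart. SEMA6A, a strongly expressed membrane semaphorin, fell by nearly the same amount in both knockouts, from 108 ± 2.39 to 89.9 ± 1.72 CPM and from 95.5 ± 3.81 to 80.1 ± 2.23 CPM (SD, n = 4), with log2 fold changes of -0.26 ± 0.04 and -0.25 ± 0.04.

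SEMA5B and SEMA3D passed in the SLC30A10 knockout and also differed between the control sets. SEMA5B had 3.78, 3.89, 1.71 and 4.82 CPM in the SLC30A10 control, 5.32 ± 0.897 CPM in its knockout and 8.85 ± 0.98 CPM in the second control (SD, n = 4). Its rise of 0.59 ± 0.20 (log2, SE; adjusted p = 0.0187 by edgeR) was lost without SLC30A10 control replicate 3 (0.36, adjusted p = 0.0897) or knockout replicate 3 (0.47, adjusted p = 0.0874), and turned to -0.22 against pooled controls. SEMA3D had 9.59 ± 0.621 CPM in the SLC30A10 control, 7.86 ± 0.804 CPM in its knockout and 5.80 ± 0.153 CPM in the second control (SD, n = 4). Its fall of 0.29 ± 0.09 (log2, SE; adjusted p = 0.0156 by edgeR) turned to 0.03 against pooled controls, and was lost without SLC30A10 knockout replicate 1 (-0.23, adjusted p = 0.0728) or control replicate 2 (-0.25, adjusted p = 0.0600). Among 19 tested semaphorins 6 were higher and 3 lower in the SLC30A10 knockout, with 21.2% and 20.2% over all tested genes. The second knockout had 1 higher and 5 lower, with 6.67% and 7.03% over all tested genes.

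Of 8 tested plexins, the semaphorin receptors, 4 were higher and 0 lower in the SLC30A10 knockout, beside 21.2% and 20.2% of all tested genes. PLXNA2, a receptor of semaphorins of classes 3 and 6 (chromosome 1, 208022242 to 208244384, minus strand), had 0.975, 1.09, 0.732 and 0.975 CPM in the SLC30A10 control and 2.98, 2.05, 3.49 and 2.12 CPM in its knockout. The second control was at the same level, with 0.734, 0.909, 1.08 and 1.03 CPM, and the second knockout was below it, with 0.249, 0.245, 0.242 and 0.182 CPM or 3 to 4 counts. The log2 fold changes were 1.49 ± 0.21 and -2 ± 0.35 (adjusted p = 1.88e-06 and 0.000159 by edgeR), and the control sets differed by 0 ± 0.26 on that scale. The difference of the effects was 3.49 ± 0.41 (adjusted p = 1.64e-07 by edgeR).

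The abundant plexins changed by small amounts. PLXNB2, which binds class 4 semaphorins, rose in both knockouts, by 0.20 ± 0.05 and 0.28 ± 0.05 on the log2 scale, from 132 ± 6.33 to 152 ± 5.37 CPM and from 172 ± 6.50 to 208 ± 12.7 CPM (SD, n = 4). Its level in the SLC30A10 knockout was below that of the second control, and against pooled controls the log2 fold change there was 0 (adjusted p = 0.986 by edgeR). PLXNC1, a receptor of SEMA7A, fell in the second knockout by 0.31 ± 0.04, from 117 ± 1.55 to 95.1 ± 1.08 CPM (SD, n = 4). PLXND1, which binds SEMA3E directly, rose by 0.40 ± 0.06 in the SLC30A10 knockout, and had 0.22 against pooled controls (adjusted p = 0.0509 by edgeR). PLXNA3, on the X chromosome, rose there by 0.44 ± 0.07 beside a median of 0.38 among its 20 neighbours.

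Neuropilins split between the knockouts. NRP2 (chromosome 2, 205682501 to 205798131, plus strand) had 4.87, 6.19, 5.49 and 5.67 CPM in the SLC30A10 control and 2.61, 2.49, 3.13 and 3.05 CPM in its knockout, a fall of 0.98 ± 0.18 on the log2 scale (adjusted p = 7.13e-05 by edgeR). The second control, at 2.73 ± 0.263 CPM (SD, n = 4), overlapped that knockout, and against pooled controls the change was -0.55 with an adjusted p of 0.132 by edgeR. NRP1, which is also a co-receptor of vascular growth factors, rose in the second knockout by 0.42 ± 0.07, from 60.9 ± 7.56 to 81.2 ± 8.50 CPM (SD, n = 4).

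Of 3 SLIT genes 2 were higher and 1 lower in the SLC30A10 knockout, beside 21.2% and 20.2% of all tested genes. In the second knockout 1 was higher and 1 lower, beside 6.67% and 7.03%. The largest rise in the SLC30A10 knockout was at SLIT3. SLIT3, a secreted ligand of ROBO receptors (chromosome 5, 168661740 to 169301139, minus strand), had 3.78, 4.43, 3.29 and 3.90 CPM in the SLC30A10 control and 17.0, 16.8, 20.6 and 19.9 CPM in its knockout. In the second control it had 12.8, 13.6, 14.1 and 12.9 CPM, and in the second knockout 4.24, 7.73, 9.39 and 10.4 CPM. The SLC30A10 knockout thus stood above every other library, whereas its control stood below all but 1, second knockout replicate 1 being within its range. The log2 fold change was 2.27 ± 0.16 (adjusted p = 7.37e-12 by edgeR) for the SLC30A10 knockout and -0.75 ± 0.15 (adjusted p = 0.000576 by edgeR) in the second knockout. The control sets differed by -1.79 ± 0.17, SLC30A10 control lower, and against pooled controls the SLC30A10 knockout had 1.11 (adjusted p = 0.0143) and the second knockout -0.11 (adjusted p = 0.849, both by edgeR).

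SLIT1 (chromosome 10, 96998038 to 97185959, minus strand) rose in both knockouts from like control levels. It had 2.01, 1.94, 1.28 and 2.56 CPM in the SLC30A10 control, 4.72, 5.10, 6.32 and 5.92 CPM in its knockout, 2.14, 2.06, 1.81 and 2.49 CPM in the second control and 3.49, 3.74, 4.90 and 3.81 CPM in the second knockout. Neither pair of groups overlapped. The rises were 1.5 ± 0.17 and 0.91 ± 0.17 on the log2 scale (adjusted p = 4.27e-08 and 0.00041 by edgeR), and their difference of 0.59 ± 0.25 did not pass (adjusted p = 0.0693 by edgeR). SLIT2, the most abundant of the 3, fell in the SLC30A10 knockout by 0.32 ± 0.07, from 50.7 ± 1.95 to 40.7 ± 1.23 CPM (SD, n = 4), and stood higher in the second control, at 85.2 ± 3.66 CPM. Against pooled controls its log2 fold change was -0.74.

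Of the ROBO receptors, ROBO2 and ROBO3 passed in the SLC30A10 knockout. ROBO1 passed in neither knockout, at 0.13 ± 0.06 and -0.01 ± 0.06 on the log2 scale. ROBO2 fell in the SLC30A10 knockout by 0.51 ± 0.07, from 34.7 ± 3.09 to 24.3 ± 1.88 CPM (SD, n = 4), and had 0.11 ± 0.06 in the second knockout. ROBO3, a divergent member of the family, fell by 0.27 ± 0.11 in the SLC30A10 knockout, where libraries overlapped, and rose by 0.35 ± 0.10 in the second knockout, where they did not. The fall lost its call without SLC30A10 knockout replicate 2 (adjusted p = 0.118) or 3 (0.128), without SLC30A10 control replicate 1 (0.0954), 2 (0.0943) or 4 (0.176), and in a fit of only the libraries compared (0.0605, all by edgeR).

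**Figure D4:**
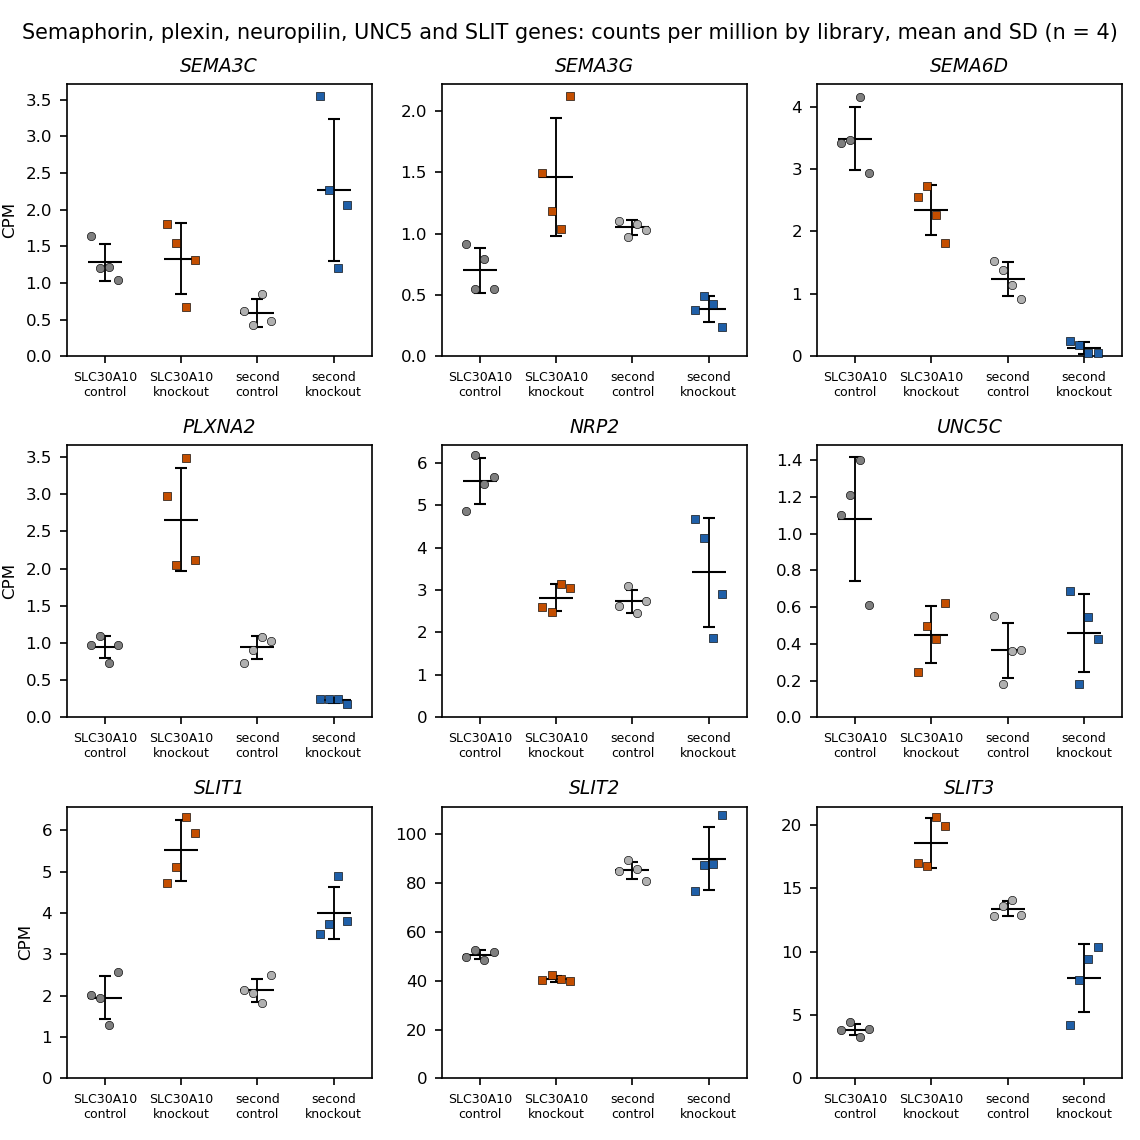
CPM of 9 semaphorin, plexin, neuropilin, UNC5 and SLIT genes in each library, with mean and SD of 4 libraries per group and axes that start at 0. SLIT3 lies at 16.8 to 20.6 CPM in the SLC30A10 knockout and at 3.29 to 4.43 CPM in its control, with the second control at 12.8 to 14.1 CPM.

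Netrins and UNC5 receptors were low. NTN1, the founding netrin, rose by 0.43 ± 0.10 in the SLC30A10 knockout, from 7.58 ± 1.01 to 10.2 ± 0.946 CPM (SD, n = 4). NTN4, a netrin of basement membranes, had 1.22, 1.76, 1.16 and 1.16 CPM in the SLC30A10 control, 2.05, 2.49, 3.19 and 2.62 CPM in its knockout and 2.31 ± 0.362 CPM in the second control (SD, n = 4). Its rise was 0.96 ± 0.21 (log2, SE; adjusted p = 0.000545 by edgeR), and against pooled controls 0.51 with an adjusted p of 0.0906. UNC5C, a repulsive netrin receptor (chromosome 4, 95162504 to 95548973, minus strand), had 10 to 23 counts in the SLC30A10 control and 4 to 10 counts in its knockout. Its levels of 1.10, 1.21, 1.40 and 0.610 CPM against 0.249, 0.497, 0.429 and 0.623 CPM overlapped in 1 library. The fall was 1.25 ± 0.34 on the log2 scale (adjusted p = 0.00397 by edgeR). The second control, at 0.365 ± 0.151 CPM (SD, n = 4), was as low as the knockout, and against pooled controls the change of -0.68 had an adjusted p of 0.279. UNC5B fell in the second knockout by 0.63 ± 0.13, from 7.72 ± 0.956 to 4.98 ± 1.07 CPM (SD, n = 4), and did not pass against pooled controls (adjusted p = 0.116 by edgeR). An antisense entry overlaps its name in the table, so reads of both cannot be told apart.

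The control sets, which carry 1 cell line identifier, were compared to measure how far guidance genes differ with no deletion between them. Of 61 tested members 35 passed (57.4%, beside 39.3% of all tested genes by the same edgeR test), 11 higher and 24 lower in the SLC30A10 control, beside 18.5% and 20.8%. Of these, 11 differed at least 1.5-fold, beside 5.64% of all tested genes, and 6 at least 2-fold, beside 1.4%. Libraries did not overlap for 35 members, beside 36.3%. UNC5C (1.55 ± 0.35), SEMA6D (1.48 ± 0.19), SEMA3C (1.10 ± 0.36), NRP2 (1.02 ± 0.18) and SEMA3D (0.73 ± 0.10) had, among members past the threshold, the largest log2 differences toward the SLC30A10 control. SLIT3 (-1.79 ± 0.17), SEMA5B (-1.32 ± 0.18), EPHB6 (-0.93 ± 0.24), NTN4 (-0.80 ± 0.21), SLIT2 (-0.75 ± 0.07) and UNC5A (-0.75 ± 0.18) were the largest past the threshold toward the second control. SEMA3C lost this call without SLC30A10 control replicate 1 (0.96, adjusted p = 0.0581 by edgeR) or second control replicate 2 (0.98, adjusted p = 0.0538 by edgeR). The knockout contrasts share these control libraries, so that the values are given side by side only. For EPHA7, EPHA6, EPHA8, EPHA10, EPHB6, PLXNA2, SEMA3G, SLIT1 and SLIT3 the SLC30A10 knockout changes, and for EPHA7, EPHA6, EPHB1, PLXNA2, SEMA3C, SEMA3G, SEMA6D and SLIT1 the changes in the second knockout, passed against pooled controls as well.

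The members lie on 19 chromosomes, 13 of them on chromosome 3 and 10 on chromosome 1, so their changes were set beside those of their neighbours. For each tested member the median log2 fold change of the 10 nearest tested genes on each side was taken, members left out, in RefSeq order. The 9 members with a 2-fold change in the SLC30A10 knockout had neighbour medians from -0.10 to 0.02, and the 7 in the second knockout from -0.06 to 0.12. Around EPHA7, 6 of 20 neighbours were also called lower in the second knockout, beside 7.03% of all tested genes. The median of these 20 neighbours was -0.06. Only for the 3 tested members on the X chromosome, EFNB1, PLXNA3 and PLXNB3, did the neighbour median in the SLC30A10 knockout exceed 0.21, at 0.40, 0.38 and 0.41. In the second knockout the neighbours of those 3 had medians of 0.03, -0.05 and -0.05.

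**Figure D5:**
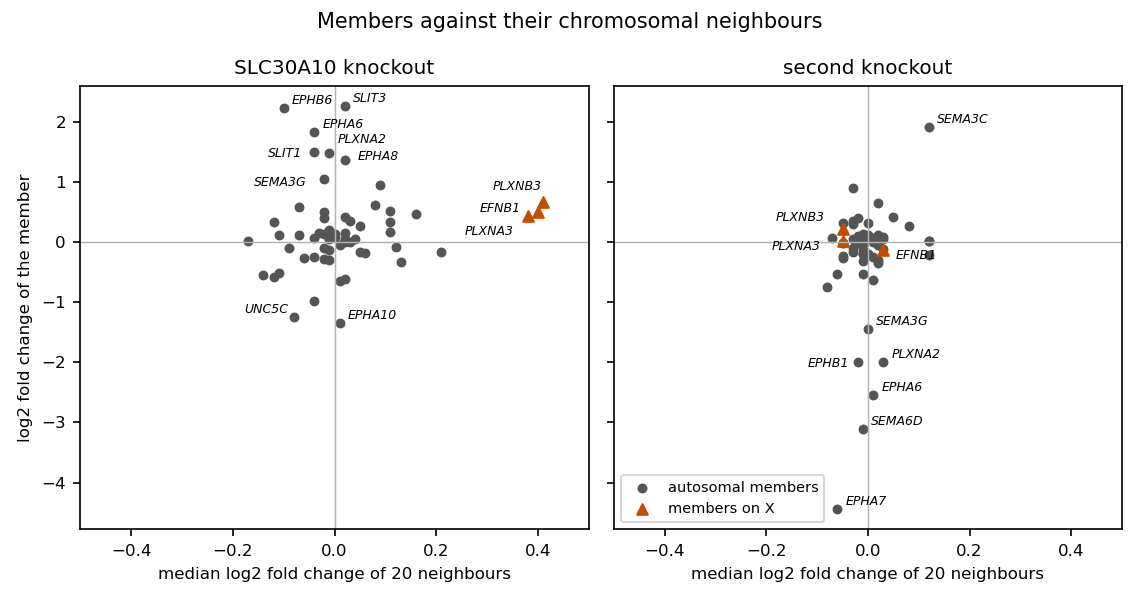
Log2 fold change of each tested member (vertical) against the median of its 20 nearest tested genes (horizontal), for the SLC30A10 knockout at left and the second knockout at right, with members on the X chromosome as triangles. The members that changed 2-fold sit near a neighbour median of 0, between -0.10 and 0.12, and the 3 X-linked members at left sit near 0.40.

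Further genes of the pathway, from lists of 30 other cues and co-receptors and 54 intracellular mediators, were examined in the same fit. Of 21 tested cues and co-receptors 10 were higher and 4 lower in the SLC30A10 knockout, and of 51 tested mediators 15 and 12, beside 21.2% and 20.2% of all tested genes. In the second knockout 3 cues were higher and 4 lower, and 5 mediators were higher and 6 lower, beside 6.67% and 7.03%. The median log2 fold changes were 0.16 and -0.06 for cues and 0.05 and -0.03 for mediators. NRCAM, a co-receptor of neuropilins, fell in the second knockout from 3.32 ± 0.720 to 0.139 ± 0.129 CPM (SD, n = 4). Its fitted log2 fold change there was -4.52 ± 0.34, with at most 5 counts in a knockout library. CHL1, a relative of NRCAM, rose by 1.96 ± 0.24 in the SLC30A10 knockout and fell by 2.23 ± 0.36 in the second knockout. It had at most 18 counts per library in the SLC30A10 control and at most 12 in the second knockout. WNT5A, a ligand that also steers axons, rose by 1.22 ± 0.06 in the SLC30A10 knockout, from 24.7 ± 1.91 to 57.6 ± 1.13 CPM (SD, n = 4). CNTN1, another adhesion molecule, was at 0 counts in all SLC30A10 knockout libraries and at 1.31 ± 0.368 CPM in their control (SD, n = 4), at least 7.04-fold lower against 3 counts per library, and rose by 2.06 ± 0.23 in the second knockout. CXCR4, a chemokine receptor, fell by 1.23 ± 0.26 in the SLC30A10 knockout, with at most 8 counts per library there and 19 in the control. MET, the receptor of hepatocyte growth factor, rose by 1.13 ± 0.07 in the second knockout. DPYSL3, which relays semaphorin signals to the cytoskeleton, fell in both knockouts, by 1.12 ± 0.10 and 2.23 ± 0.10. TIAM1, an activator of RAC1, fell by 1.51 ± 0.15 in the SLC30A10 knockout, and SRGAP3, which binds ROBO receptors, rose by 1.04 ± 0.08 in the second knockout. NGEF, an exchange factor bound by EphA receptors, differed by -1.05 ± 0.09 between the control sets, SLC30A10 control lower.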

How the data were processed

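Gene counts were taken from the table of whole-number counts that the authors deposited, with 1 column per library. The submitters' processing notes list HISAT2, featureCounts, DESeq2 and the build hg38, with no role or version; strand setting and annotation are not given in the sources used here. The authors also deposited a normalized signal table, each column of which is the count column times a constant; it served only as an alternative scaling. The deletion in the second knockout is not reported here.

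Testing used edgeR 4.0.16 (R 4.3.3) after its expression filter (minimum count 10, minimum total 15) and TMM scaling, in a single fit of the 16 libraries with a mean per group. Quasi-likelihood tests compared each knockout with its own control, the 2 effects with each other, and the control sets. P-values were adjusted by Benjamini-Hochberg over 15569 genes. SE is the absolute log2 fold change over the root of the F statistic. Exon lengths came from GENCODE 29, positions and promoters from RefSeq on GRCh38.p14, which placed 90.9% of tested genes. Simulated counts with known changes served to test the scripts beforehand.

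Named with values were members past the threshold with an absolute log2 fold change of at least 0.58 in a knockout or between the control sets and the highest of each family per length; genes of the wider lists needed a 2-fold change. Other members named were chosen after their values were seen. Members and lists were chosen with earlier results of these data known. Replicate pairs differed by more than sampling noise (chi-square per degree of freedom 1.64 to 6.85). Alternatives were other scalings, filters, thresholds, DESeq2 1.42.0, fits of only the libraries compared, pooled controls, the replicate number as a block, each library left out, and, chosen after seeing the data, the added EPHB6 copy, the omission of X-linked members, and all alternatives for members named outside the rule.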

Additional observations from a re-analysis of the deposited data

Results flagged for a closer look

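For 18 of 244 sets of 4 libraries (a tested member in a group), Dixon's test at its 95% limit set 1 library apart, where chance at 1 in 20 gives about 12.2. The shares given divide the distance from its nearest neighbour by the whole range of the set. In the SLC30A10 control these were EPHA2 (gap share 0.920, replicate 3 high), NTN4 (0.901, replicate 2 high), ROBO1 (0.905, replicate 4 high) and PLXNB3 (0.837, replicate 4 low). In the SLC30A10 knockout they were EFNB2 (0.932, replicate 1 low), PLXNA1 (0.847, replicate 1 low), NRP1 (0.926, replicate 2 high), EPHB2 (0.830, replicate 3 high), EPHA8 (0.857, replicate 4 low) and SEMA4A (0.878, replicate 4 high). In the second control they were EPHA4 (0.931, replicate 3 low) and PLXNB3 (0.949, replicate 2 low). The second knockout had PLXNB3 (0.981, replicate 1 low), EPHB6 (0.854, replicate 2 low), EFNA2 (0.839, replicate 3 high), SEMA3D (0.929, replicate 3 low), EPHA7 (0.862, replicate 4 high) and PLXNA2 (0.894, replicate 4 low). PLXNB3 was at few counts, and its library apart in the second knockout lay at 0.374 CPM against 1.09 to 1.10 CPM in the others.

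The difference of the knockout effects passed the threshold for 15 of the members named by size (edgeR quasi-likelihood test, adjusted over all genes). It passed for 31.3% of all tested genes. These members were named for large changes in the same libraries, so a high number of passes was partly built in. On the log2 scale, with positive values in favour of the SLC30A10 knockout, the difference was 4.39 for EPHA6, 3.83 for EPHA7, 3.49 for PLXNA2, 3.01 for SLIT3, 2.58 for EPHB6, 2.53 for SEMA6D, 2.51 for EPHB1, 2.48 for SEMA3G, 1.48 for NTN4 and 0.49 for SEMA3B. It was -0.40 for SLIT2, -1.30 for NRP2, -1.58 for UNC5C, -1.64 for EPHA10 and -1.86 for SEMA3C. Each effect rests on its own control set, and the control sets differed at 35 of the 61 tested members.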

How the results depend on the processing

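The counts of members called stayed within 1.5 times the reported ones under every alternative except the requirement of a 2-fold change. With that requirement 9 members remained in the SLC30A10 knockout, 7 in the second knockout, 13 in the difference of the effects and 6 between the control sets, and the wider lists gave 6 genes in each knockout. Leaving out each library gave 33 to 37 members in the SLC30A10 knockout, 17 to 25 in the second knockout, 28 to 37 for the difference and 32 to 36 between the control sets. With the replicate number as a block 36, 19, 32 and 36 members passed, and 40 and 18 genes of the wider lists. For the block and for single libraries left out, the share of all tested genes is not given here. Pooled controls moved that share from 41.4% to 32.1% in the SLC30A10 knockout and from 13.7% to 19% in the second knockout. Against pooled controls 41% and 32.8% of the tested members passed. Same-numbered libraries correlated at -0.0318 and 0.0472 on average within the experiments and at 0.0179 between the control sets. SLC30A10 control libraries 1, 2 and 3 correlated best with their own number in the second control, at 0.0428, 0.0216 and 0.11. Second knockout library 1 did so in its control, at 0.1164, and the other libraries did not. Whether same-numbered libraries shared a batch was not tested. Of 61 named values past the threshold, 45 kept their direction and call under every alternative in which the gene was tested. Of 1492 values under alternatives, 28 lost the call, 3 of them with a change of sign or a value of 0. Alternatives that left a gene out were not counted for it, as for EPHA6 in the second knockout and its control alone. The stricter threshold and the 2-fold requirement were applied to the counts of genes called only, not to these values. The alternatives for members named outside the naming rule were added after seeing the data. Pooling both control sets turned SEMA3D in the SLC30A10 knockout to 0.03, SEMA5B to -0.22 and PLXNB2 to 0 on the log2 scale, and the log2 ratio of SLC30A10 itself from -0.18 to 0.20; the causes were not tested. It ended the calls of EFNA3, EFNB2, EPHB1, NRP2, NTN4, PLXND1, SEMA6D and UNC5C in that knockout and of SLIT3 and UNC5B in the second knockout. SEMA3B between the control sets lost its call without SLC30A10 control replicate 2 (-0.35, adjusted p = 0.0514 by edgeR). No scaling moved the median of all tested genes by over 0.1 on the log2 scale. Depth limits members at a few counts per library, such as EPHA6 in the second knockout.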
